A study of Mus musculus with 6 samples.

Results

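The genes described here encode the structural core of basement membranes: 3 chains of type IV collagen (Col4a1, Col4a2 and Col4a5), the nidogens Nid1 and Nid2, perlecan (Hspg2) and the laminin chains Lama4, Lama5, Lamb1 and Lamc1. They were chosen by symbol, as every probe set that the platform's probe table assigns to one of these 10 genes, of 18193 genes with at least 1 such probe set. That gave 22 probe sets, which were kept apart; a probe set is a group of short probes against the same transcript. Of these, 19 were bright enough to be tested, with at least 1 for each of the 10 genes, and 3 were too dim (1 each for Nid1, Lama5 and Lamb1).

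The cells were 2T3, a clonal mouse pre-osteoblast line from calvaria that carries a viral T antigen, at passage 8 to 10. They were held for 3 days either in static culture (3 samples) or in the rotating wall vessel (3 samples, called rotated here), a turning, fluid-filled chamber in which cells stay suspended and which serves on the ground as a model of microgravity. Total RNA went onto 1 Affymetrix array per sample. No genetic change or drug separates the groups, and both come from this 1 clone. The titles of both groups begin with RWV, for rotating wall vessel, so they do not place the static samples outside such a vessel. To this the titles of the rotated samples add only the letter R. The source fields of static 2 and static 3 name simulated microgravity against their titles, and the titles were followed. Nothing in the labels says that samples of a group were separate cultures, so every p-value measures the spread between these arrays, which may be technical.

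Basement membranes are thin matrix sheets under epithelia and endothelia and around muscle, fat and nerve cells. Laminins, each a trimer of an alpha, a beta and a gamma chain, polymerise on cell surfaces, and type IV collagen forms a second, covalently crosslinked network. Nidogens and perlecan bind to both and link them. The alpha1 and alpha2 chains of type IV collagen, from Col4a1 and Col4a2, assemble together in nearly all basement membranes, whereas the alpha5 chain is found in fewer. Bone matrix itself is dominated by fibrillar collagen, but osteoblasts and their precursors also transcribe basement membrane genes.

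Signals are given as quantile-normalised log2 values, log2(signal + 16.6), unless the deposited linear signal is named. Differences are rotated minus static on that scale with limma's standard error (SE), n = 3 arrays per group. A probe set counted as dim when its mean over all arrays lay below 5.96. Array medians of the deposited signal ran from 70.0 to 130.1. The 3' over 5' signal ratio of the actin control, which goes up when RNA is degraded or copied incompletely, was 3.21 in rotated 1, against 1.48 and 1.57 for its group and 1.29 to 1.37 for static culture. The Gapdh control did not set that array apart in this way. Its ratio of 0.875 there was the highest, but static 1 had 0.867 and the remaining arrays 0.748 to 0.792. Of 9 pre-osteoblast markers 8 were measured and all 8 lay above the dim threshold, with a summed deposited signal of 37125 to 41008 in static and 26480 to 34839 in rotated samples, which were all lower. Most of this sum was Col1a2 (-0.36 ± 0.16 on the log2 scale) and Col1a1 (-0.79 ± 0.34). Dlx5 stood at -1.08 ± 0.32 and Sp7 at -0.84 ± 0.34. Msx2, Pth1r, Alpl and Ibsp overlapped between the groups, with differences of -0.55 to -0.28. The means of Pth1r, Alpl and Ibsp (6.37 to 6.74) were near the threshold. Of 7 endothelial markers 5 lay below the threshold (Pecam1, Cdh5, Tek, Tie1 and Emcn). The summed signal of all 7 was 305.6 to 639.4 in static and 258.0 to 436.2 in rotated samples. Epithelial markers summed to 300.6 to 621.0 and 218.0 to 353.2, with Cdh1, Krt14 and Krt18 below the threshold. Of the tested ones, Epcam stood at -0.96 ± 0.40 on the log2 scale and Krt8 at 0.33 ± 0.42. Macrophage markers summed to 396.2 to 606.5 and 525.9 to 596.2, with Ptprc below the threshold. Smooth muscle and pericyte markers, led by Acta2, which such fibroblast-like cells also make, summed to 13445 to 22920 and 7242 to 19888, with Myh11 below the threshold. That sum is mostly Acta2 (-0.59 ± 0.38 on the log2 scale), while the pericyte marker Rgs5 stood at 0.84 ± 0.35, Cspg4 at 0.22 ± 0.30 and Cnn1 at 0.14 ± 0.52. Adipocyte markers, led by Fabp4, summed to 4266 to 6064 and 4136 to 4643, with Adipoq below the threshold. Fabp4 stood at -0.59 ± 0.23 on the log2 scale, Lpl at 0.25 ± 0.29 and Pparg at -0.26 ± 0.63. None of these lists was at 0, and their part in the results was not tested.

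The genes did not share a direction. Both probe sets of Col4a1 and the probe set of Col4a2 were higher in all 3 rotated samples than in any static sample, Nid2 was lower in all 3, and perlecan, Lama4 and Lamc1 overlapped between the groups. No member passed the test: limma, with Benjamini-Hochberg adjustment over 27022 probe sets, called 0% of them at 0.05 (smallest adjusted p 0.300), and 0.0074% with the replicate number as a block. At an unadjusted p under 0.05, 5 of the 19 member probe sets were higher and 2 lower in rotated samples, against 4.34% and 3.9% of all tested probe sets. Both Col4a1 probe sets, built from the same sequence record, are among the 5. By each gene's brightest probe set, 3 of the 10 genes were higher and 1 lower at that p, against 4.49% and 3.74% of all genes tested. The members were chosen with earlier results of these data known, so the counts in this paragraph are a description. The rotated values lay entirely above the static values in 5 member probe sets and entirely below in 4, against 7.82% and 7.29% of all tested probe sets. Both counts of 5 include Lama5 1427010_s_at, which was tested only through its high rotated values; among the 18 member probe sets with both group means above the dim threshold, both were 4. The median difference over the 10 genes, each by its brightest probe set, was -0.14, and over all 12554 genes tested it was 0.03. Of the 10 genes 3 were higher and 7 lower, against 53.2% and 46.8% of all genes tested. Lamb1 counts here as higher and Lama5 as lower, although the probe sets of each disagreed. These are RNA levels of whole cultures, in which fewer cells that make a transcript and less of it per cell cannot be told apart.

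**Figure D1:**
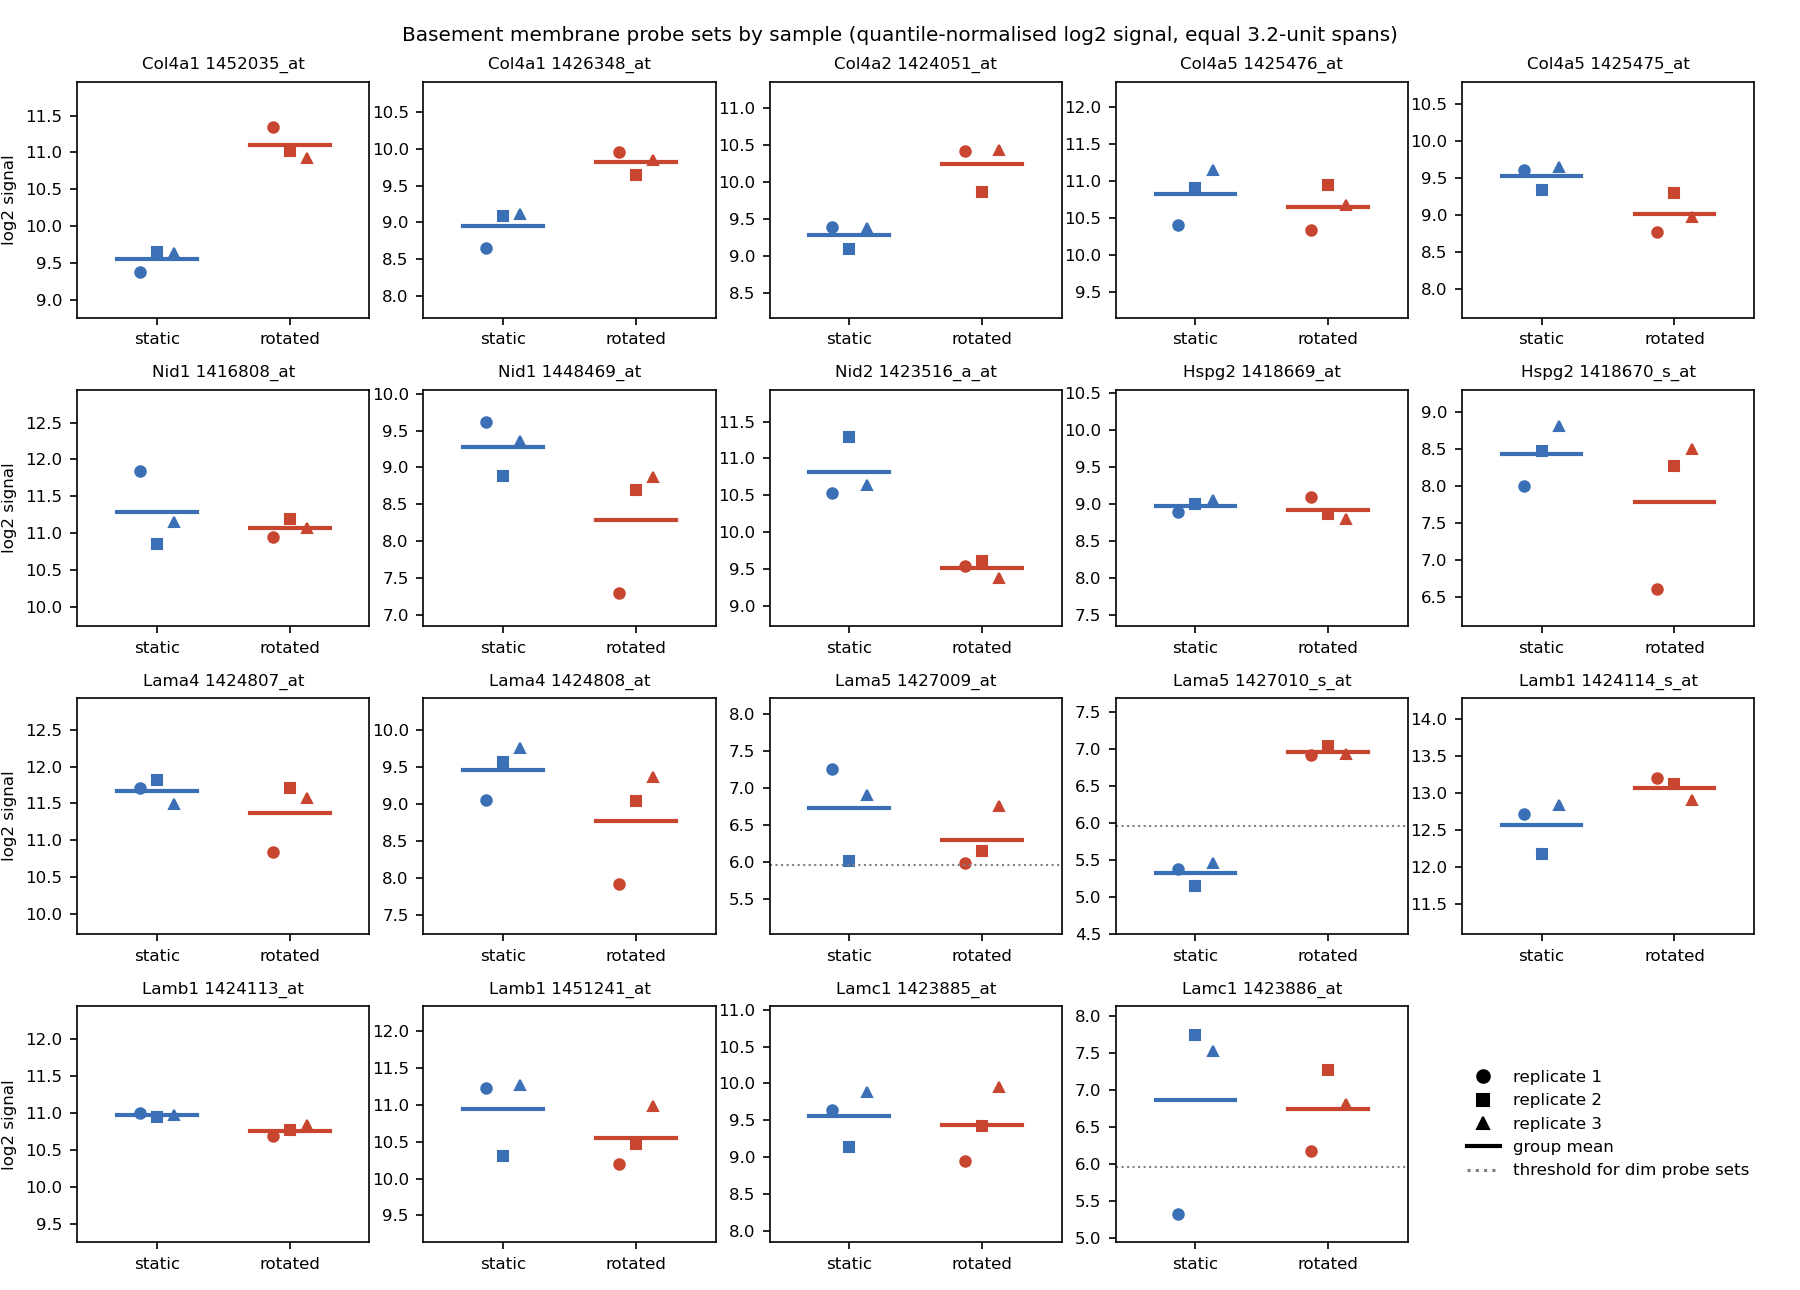
Quantile-normalised log2 signal (y axis) of the 19 tested member probe sets in static (blue) and rotated (red) samples, 1 panel per probe set; marker shapes are replicate numbers, bars are group means and the dotted line is the dim threshold of 5.96. The rotated samples of Col4a1 1452035_at sit between 10.93 and 11.34, all above the static samples at 9.38 to 9.65, and those of Nid2 sit between 9.38 and 9.61, all below the static samples at 10.53 to 11.28.

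Col4a1 and Col4a2 lie head to head on opposite strands of mouse chromosome 8, so their promoters are shown first. In RefSeq's promoter table (build GRCm38.p6; 250 bases before to 50 after each start) the window of Col4a1 is chr8:11312777-11313076 on the minus strand and that of Col4a2 is chr8:11312555-11312854 on the plus strand. The listed start sites are 21 bases apart, each inside the other gene's transcript, so the 5′ ends overlap. The windows share 78 bases, read on opposite strands, from 28 bases before to 50 after the listed start of Col4a2. Capitals mark the shared bases, 5′ to 3′ on each gene's own strand.
Col4a1: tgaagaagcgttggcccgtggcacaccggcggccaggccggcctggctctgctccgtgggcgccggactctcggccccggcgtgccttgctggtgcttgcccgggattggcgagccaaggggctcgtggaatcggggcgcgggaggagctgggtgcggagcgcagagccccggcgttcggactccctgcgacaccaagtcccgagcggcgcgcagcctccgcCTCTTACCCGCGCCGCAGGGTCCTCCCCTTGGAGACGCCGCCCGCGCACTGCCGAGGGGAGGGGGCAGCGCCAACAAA
Col4a2: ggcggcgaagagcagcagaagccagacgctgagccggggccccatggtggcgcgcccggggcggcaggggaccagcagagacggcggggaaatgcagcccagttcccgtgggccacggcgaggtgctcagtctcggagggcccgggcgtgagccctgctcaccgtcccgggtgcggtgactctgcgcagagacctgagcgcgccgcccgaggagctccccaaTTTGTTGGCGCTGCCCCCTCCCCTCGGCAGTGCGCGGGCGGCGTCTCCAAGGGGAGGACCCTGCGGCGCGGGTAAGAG

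The shared stretch, chr8:11312777-11312854, is shown again on the plus strand with capitals on the letters of 2 searched motifs, a CTC box (CCCTCCCC) at base 16 and a GC box (GGGCGG) at base 36.
Shared: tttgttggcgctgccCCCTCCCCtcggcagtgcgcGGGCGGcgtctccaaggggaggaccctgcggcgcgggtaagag
By the listed starts, the GC box lies after the starts of both genes. The CTC box lies before the start of Col4a2 and after that of Col4a1. Each motif was searched on both strands, and the motifs can overlap other matches. GGGCGG occurred in the windows of all 7 members that have one in the table (Col4a1, Col4a2, Col4a5, Nid1, Hspg2, Lama5 and Lamb1), and in 35.7% of all 32851 windows. CCCTCCCC occurred in 5 of the 7, Hspg2 and Lamb1 lacking it, and in 10.8% of all windows. CCAAT occurred in 5 of the 7, Hspg2 and Lama5 lacking it, and in 37.4% of all windows. The TATA letters TATAAA were in none of the 7 and in 13.6% of all windows. The GC content was 74.0% for Col4a1, 73.7% for Col4a2, 72.7% for Lama5, 70.3% for Hspg2, 64.7% for Nid1, 63.7% for Lamb1 and 52.7% for Col4a5. The median of all windows was 52.7%, so all but Col4a5 were richer in G and C, the letters of GGGCGG and CCCTCCCC; the shares were not adjusted for this. A match of letters is a description of the window and shows no binding.

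Col4a1 encodes the alpha1 chain of type IV collagen. Its brighter probe set, 1452035_at, had deposited signals of 650.1, 788.1 and 817.1 in static 1, static 2 and static 3, and of 2601.0, 2069.5 and 1961.5 in rotated 1, rotated 2 and rotated 3. Every rotated array was above every static array. On the normalised log2 scale the group means were 9.56 ± 0.15 (SD) in static and 11.10 ± 0.22 in rotated samples, a difference of 1.54 ± 0.21 (SE; 2.91-fold; 95% confidence interval 1.06 to 2.02; limma adjusted p 0.300). Leaving out rotated 1, whose actin ratio was 3.21, gave 1.42, and adjusting for the log2 actin ratio gave 1.36. The dimmer probe set, 1426348_at, built from the same sequence record, read 406.3, 524.0 and 569.7 in static samples and 915.4, 780.3 and 947.7 in rotated samples in deposited signal. It again separated the groups, by 0.86 ± 0.24 on the log2 scale (adjusted p 0.592).

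Col4a2 encodes the alpha2 chain, which joins the alpha1 chain in the collagen IV trimer. Its only probe set read 651.4, 526.3 and 682.3 in the static samples and 1309.8, 909.7 and 1404.1 in the rotated samples, in deposited signal and in replicate order. The groups did not overlap, although rotated 2 lay closer to the static samples than the other rotated arrays did. The log2 difference was 0.95 ± 0.24 (1.93-fold; 95% confidence interval 0.40 to 1.50; adjusted p 0.580), and it was 0.86 without rotated 1 and 1.14 without rotated 2. With the replicate number as a block the adjusted p was 0.171 for Col4a2 and 0.133 for the brighter Col4a1 probe set, so neither was called. With limma's array weights Col4a1 passed (1.42, adjusted p 0.031) and Col4a2 did not (0.72, adjusted p 0.143). Those weights rest mostly on static 3 (3.32) and rotated 2 (2.55), and adjusted p for Col4a1 ran from 0.031 to 1.00 over all alternatives.

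Pairs of genes arranged like Col4a1 and Col4a2 were counted for context. Among all genes, 1617 pairs had promoter windows that overlap on opposite strands, and in 618 of them both genes were tested. The brightest probe sets of both genes differed in the same direction in 308 of these 618 pairs (49.8%). In 5 pairs both genes had all rotated values above the static values, and in 3 pairs both had all of them below. Ranked by the smaller of a pair's differences among the 308 pairs with a common direction, Col4a1 and Col4a2 stood at place 1, with 0.95. Both genes had been chosen with their differences already known, so this place is a description.

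Col4a5 encodes the alpha5 chain and lies on the X chromosome. Its probe set 1425476_at read 10.40, 10.90 and 11.15 on the log2 scale in static samples and 10.34, 10.95 and 10.67 in rotated samples, so the groups overlapped throughout. The difference was -0.16 ± 0.26 with a 95% confidence interval of -0.75 to 0.42, and its sign turned without static 3 (0.0037). The other probe set, 1425475_at, read 9.61, 9.34 and 9.65 in static and 8.77, 9.30 and 8.98 in rotated samples. All rotated values were lower there, rotated 2 by a small margin, with a difference of -0.52 ± 0.24 (adjusted p 0.609). Neither probe set of Col4a5 was higher in rotated samples, unlike those of Col4a1 and Col4a2; whether the chains differ from each other was not tested.

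The nidogens, also called entactins, bind the laminin gamma1 chain and type IV collagen. Nid2 had deposited signals of 1427.7, 2501.3 and 1612.6 in static 1, static 2 and static 3 and of 668.0, 763.5 and 679.0 in rotated 1, rotated 2 and rotated 3. The rotated arrays were close to each other and all lay below the static ones, of which static 2 was the highest. The log2 means were 10.82 ± 0.41 (SD) in static and 9.51 ± 0.12 in rotated samples, a difference of -1.31 ± 0.25 (2.48-fold lower; 95% confidence interval -1.87 to -0.74; limma adjusted p 0.458, and 0.142 with the replicate block). It was -1.32 without rotated 1 and -1.31 after adjusting for the actin ratio. Without static 2 it was -1.07.

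Nid1, the related and more widespread nidogen, gave different pictures in its probe sets. The brightest, 1416808_at, read 11.84, 10.85 and 11.16 on the log2 scale in static samples and 10.94, 11.20 and 11.07 in rotated samples. The rotated values fell inside the static range, and the difference of -0.21 ± 0.26 became 0.07 without static 1. The second, 1448469_at, built from the same sequence record, read 9.61, 8.88 and 9.35 in static and 7.29, 8.70 and 8.87 in rotated samples. Its difference of -0.99 ± 0.42 (adjusted p 0.603) was led by rotated 1 and was -0.50 without that array and -0.26 after adjusting for the actin ratio. The third, 1441519_at, was dim (mean of 5.27 in static and 5.94 in rotated samples) and was not tested. The lower level of Nid2 in rotated samples therefore had no counterpart in the brightest Nid1 probe set; the difference between the 2 genes was not tested.

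**Figure D2:**
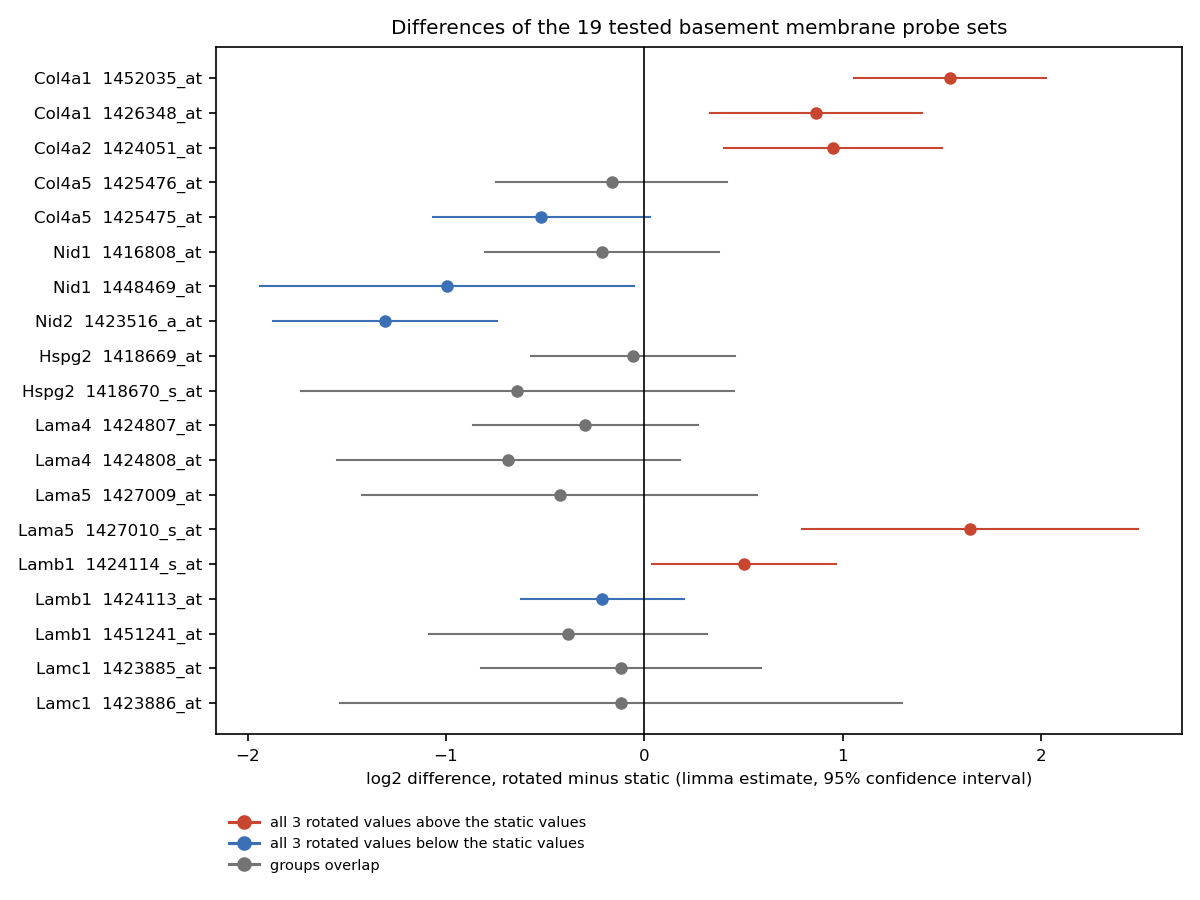
Log2 difference, rotated minus static (x axis), with its 95% confidence interval from limma for each of the 19 tested member probe sets (y axis). Red marks the 5 probe sets with all rotated values above the static values, blue the 4 with all of them below, and grey those that overlap.

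Perlecan, from Hspg2, is the large heparan sulphate proteoglycan of basement membranes. Its probe set 1418669_at was almost level: 8.89, 9.00 and 9.05 on the log2 scale in static and 9.10, 8.86 and 8.80 in rotated samples. The difference was -0.06 ± 0.23, with a 95% confidence interval of -0.57 to 0.46, which leaves room for changes of moderate size in either direction. It was 0.0081 with median centring and 0.000197 without rotated 3. The probe set 1418670_s_at read 8.00, 8.48 and 8.81 in static and 6.60, 8.27 and 8.50 in rotated samples. Rotated 1 stood far below the other arrays, and the difference of -0.64 ± 0.49 was -0.05 without it and 0.28 after adjusting for the actin ratio.

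Among the laminin chains, Lamb1 encodes beta1 and Lamc1 gamma1, the chains that nearly all laminins of connective tissue cells contain. The brightest Lamb1 probe set, 1424114_s_at, had deposited signals of 6115.8, 4722.7 and 6943.8 in static and 10680, 9140.7 and 7341.3 in rotated samples, all rotated arrays higher, with rotated 3 just above static 3. The log2 difference was 0.50 ± 0.21 (95% confidence interval 0.04 to 0.96; adjusted p 0.603), and it was 0.30 without static 2. Its unadjusted p was no longer under 0.05 without static 2, rotated 1 or rotated 2. The other tested Lamb1 probe sets come from the same sequence record and went the opposite way. Probe set 1424113_at read 11.00, 10.94 and 10.98 in static and 10.69, 10.76 and 10.83 in rotated samples, a narrow spread in which all rotated values were lower by little (-0.21 ± 0.18). Probe set 1451241_at read 11.22, 10.31 and 11.27 in static and 10.20, 10.47 and 10.99 in rotated samples, which overlap (-0.39 ± 0.31; -0.70 without static 2 and -0.21 without rotated 1). The mean over the 3 probe sets differed by -0.03, so no direction is given for Lamb1. The suffix _s_at marks probe sets that can bind more than 1 transcript. The fourth probe set, 1446180_at, was dim and was not tested.

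Lamc1 overlapped between the groups in both probe sets. Probe set 1423885_at read 9.64, 9.14 and 9.89 on the log2 scale in static and 8.95, 9.42 and 9.95 in rotated samples (-0.12 ± 0.31). Probe set 1423886_at, much dimmer, read 5.32, 7.75 and 7.53 in static and 6.17, 7.27 and 6.81 in rotated samples (-0.12 ± 0.63), with static 1 and rotated 1 the lowest of each group. The sign of both turned when single arrays were left out. The 95% confidence interval of the brighter one was -0.83 to 0.59.

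Lama4 encodes the alpha4 chain, typical of laminins made by mesenchymal and endothelial cells. Its bright probe set, 1424807_at, read 11.70, 11.82 and 11.49 in static and 10.84, 11.71 and 11.57 in rotated samples. Rotated 2 and rotated 3 were within the static range and rotated 1 was below it, for a difference of -0.30 ± 0.25 that was -0.03 without rotated 1. The second probe set, 1424808_at, read 9.05, 9.58 and 9.76 in static and 7.92, 9.05 and 9.37 in rotated samples. Again rotated 1 was lowest, and the difference of -0.69 ± 0.38 (adjusted p 0.632, and 0.280 with the replicate block) was -0.26 without it and -0.01 after adjusting for the actin ratio. Within same-numbered pairs it was lower in all 3, by values of -1.13, -0.53 and -0.39, although the groups overlap.

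Lama5 encodes the alpha5 chain, widespread in epithelial and vessel basement membranes, and was the dimmest member. Its probe set 1427009_at read 7.25, 6.01 and 6.91 in static and 5.98, 6.15 and 6.76 in rotated samples, overlapping and near the dim threshold (-0.43 ± 0.44; -0.16 without static 1 and -0.78 without static 2). Probe set 1427010_s_at had deposited signals of 44.9, 14.3 and 24.0 in static and 106.6, 111.9 and 91.3 in rotated samples. All rotated arrays were higher, by 1.64 ± 0.38 on the log2 scale (adjusted p 0.534), and the difference was 1.67 without rotated 1. Its static mean of 5.32 lay below the dim threshold of 5.96. It was tested only because the rotated values are high, and its difference is not an exact fold: it was 1.08 with the larger offset and 1.94 with the smaller one. The third probe set, 1459614_at, was dim in both groups (4.62 and 4.94) and was not tested. With 1 tested probe set higher and 1 lower, the data give no common direction for Lama5.

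**Figure D3:**
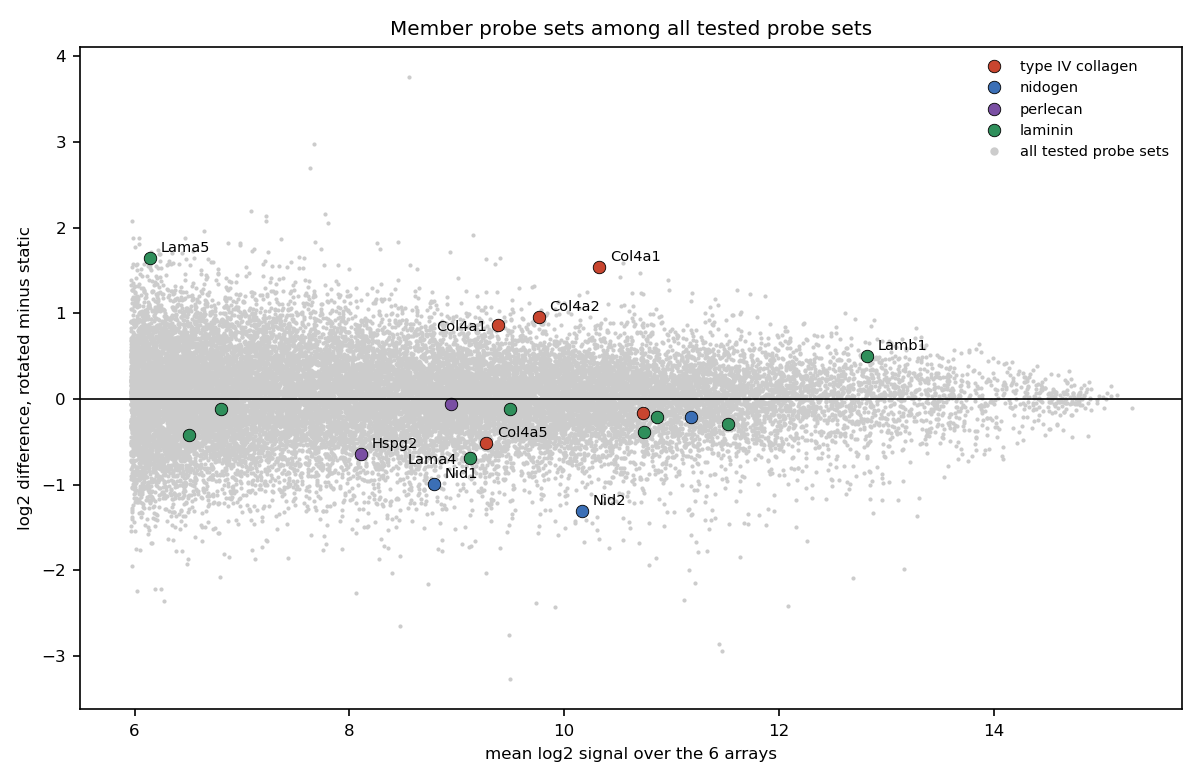
Log2 difference, rotated minus static (y axis), against the mean log2 signal over the 6 arrays (x axis) for all 27022 tested probe sets (grey) and the 19 member probe sets (coloured by family). Col4a1 at 1.54 and Nid2 at -1.31 lie at opposite edges of the cloud at their signal level, and most other members lie within it.

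The same array recurs in these values. In rotated 1, whose actin ratio was 3.21, the second probe sets of Nid1, Hspg2 and Lama4 were 7.29, 6.60 and 7.92, lower than on any other array. Their differences were -0.99, -0.64 and -0.69 with all arrays, and -0.50, -0.05 and -0.26 without rotated 1. Without that array the differences were 1.42 and 0.79 for the Col4a1 probe sets, 0.86 for Col4a2 and -1.32 for Nid2, with their directions kept. The part of RNA quality in the first set of differences was not tested beyond these values. By the Gapdh ratio, rotated 1 (0.875) lay close to static 1 (0.867), and no fit was adjusted for that ratio. Of the 19 probe sets, 10 kept their direction under every alternative tried for them. For collagen IV these were both of Col4a1, that of Col4a2 and 1425475_at of Col4a5. The nidogen ones were 1448469_at of Nid1 and that of Nid2. The laminin ones were 1424808_at of Lama4, 1427010_s_at of Lama5, and 1424113_at and 1451241_at of Lamb1. Of these, 1427010_s_at was tested only through its high rotated values and was not tried under the stricter filter. Only a gene's brightest probe set was also judged by the mean over the gene's probe sets. Lamb1 1424114_s_at (-0.03) and Lama5 1427009_at (0.61) changed sign in that alternative alone.

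**Figure D4:**
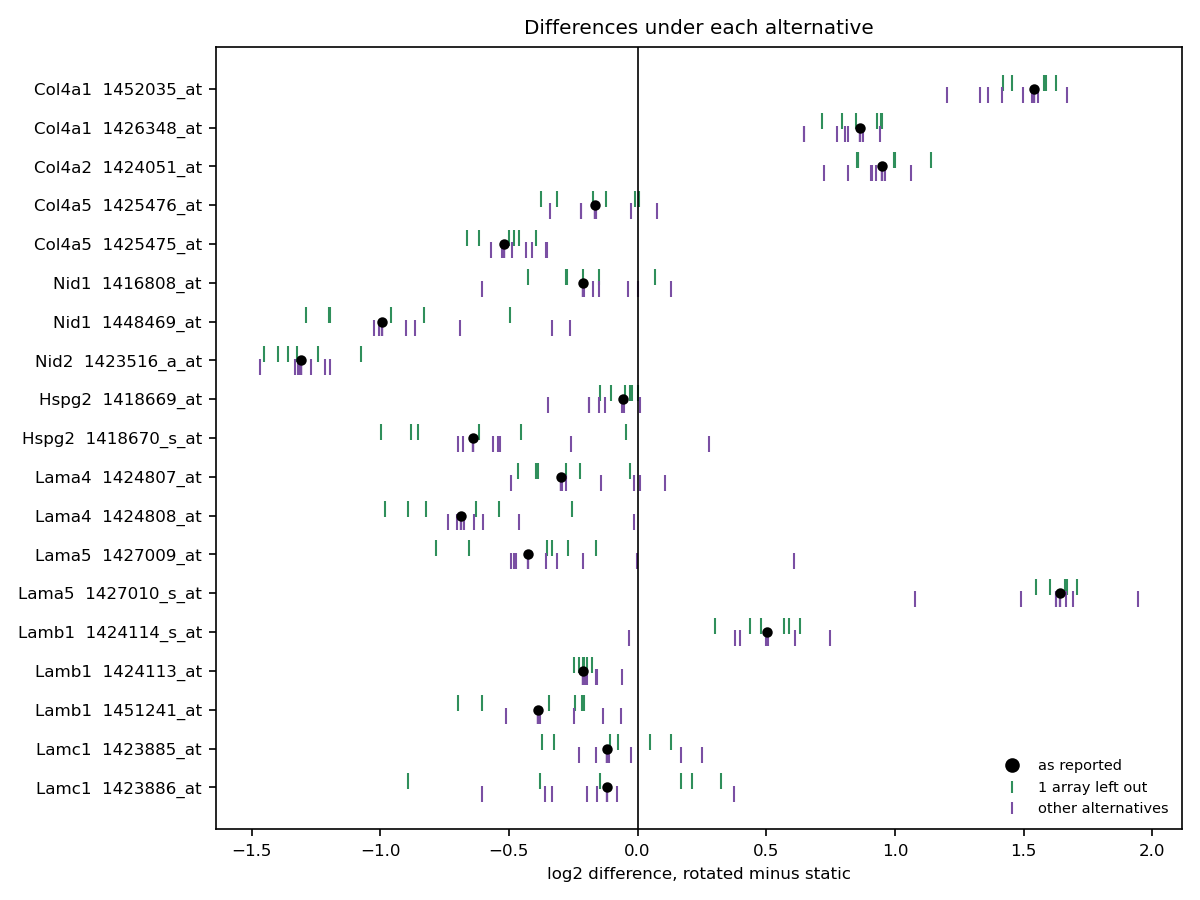
Log2 difference, rotated minus static (x axis), of each tested member probe set (y axis) as reported (black), with 1 array left out (green) and under the other alternatives (purple). Col4a1 1452035_at stays between 1.20 and 1.67 and Nid2 between -1.47 and -1.07, while both Lamc1 probe sets cross 0.

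Further genes of the basement membrane were read from lists that, like the members, were drawn up with earlier results of these data known. Of 28 other chains and components 27 were on the array, and 10 were bright enough to be tested. At an unadjusted p under 0.05, 0 were higher and 2 lower, against 4.49% and 3.74% of all genes tested, and the median difference was -0.16, against 0.03 over all genes tested; without rotated 1 the median was 0.16. Relative to the static mean, the rotated samples averaged -0.36, -0.15 and 0.21 over this list in replicate order, and static samples ranged from -0.19 to 0.25, so only rotated 1 lay outside the static range. The lower ones were Fbln1, the elastic fibre and basement membrane protein fibulin-1 (-1.18 ± 0.47), whose groups overlap, and Sparc, a collagen-binding matricellular protein (-0.44 ± 0.18). Sparc read 14.89, 14.99 and 14.97 in static and 14.10, 14.74 and 14.67 in rotated samples, and 1 of its 2 other probe sets went the opposite way. Agrn, the heparan sulphate proteoglycan agrin, stood at 0.57 ± 0.36 with overlapping groups.

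The machinery that folds, hydroxylates, exports and crosslinks collagen IV and laminin had 21 of 22 genes tested. Of these 0 were higher and 2 lower at an unadjusted p under 0.05, against the same 4.49% and 3.74% of all genes, and the median was 0.03, the same to 2 decimals as over all genes. P4hb, the beta subunit of prolyl 4-hydroxylase and a disulfide isomerase, stood at -0.40 ± 0.17, and Ppib, the collagen prolyl isomerase cyclophilin B, at -0.37 ± 0.16. In both, all rotated values were lower, with rotated 1 the lowest. These enzymes serve fibrillar collagens too. Pxdn, the peroxidase that forms the crosslinks particular to collagen IV, stood at 0.11 ± 0.25, and Mia3, needed for the export of large collagens, at 0.16 ± 0.21.

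Receptors and anchors had 15 of 21 genes tested, with 2 higher and 3 lower at an unadjusted p under 0.05, against 4.49% and 3.74% of all genes. The median of 0.03 was 0.17 without static 1, -0.12 without static 2 and 0.20 with median centring. Itga6, the alpha6 subunit of laminin-binding integrins, read 8.10, 7.72 and 8.12 in static and 9.53, 8.90 and 9.28 in rotated samples. The groups stood well apart, by 1.26 ± 0.27 (2.39-fold; limma adjusted p 0.491), and its other probe set stood at 1.03. Gpc1, the cell surface proteoglycan glypican-1, was higher by 0.83 ± 0.35, with rotated 2 (8.56) barely above static 1 (8.54). Itga3, the alpha3 subunit of another laminin-binding integrin, had all rotated values higher too (0.68 ± 0.32). Itga1, the alpha1 subunit of a collagen IV receptor, was lower by 0.99 in value (-0.99 ± 0.38), with rotated 2 (7.59) above static 3 (7.50). Itgb1, the beta1 subunit shared by most of these integrins, stood at -0.94 ± 0.34 and the syndecan gene Sdc2 at -0.83 ± 0.31. Both were lowest in rotated 1, at 11.10 and 11.26, against 12.28 to 12.57 in the other rotated samples and 12.62 to 13.16 in the static ones. Thus the alpha subunit genes Itga6 and Itga1 lay on opposite sides; that contrast was not tested, and none of these genes passed the adjusted test.

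Proteases and inhibitors that act on basement membranes had 12 of 15 genes tested, 3 higher and 9 lower in value, with a median of -0.35 (-0.22 without rotated 1). At an unadjusted p under 0.05 the list held 0 higher and 1 lower, against 4.49% and 3.74% of all genes; the lower one was Mmp2, the gelatinase that cleaves type IV collagen (-0.46 ± 0.21). Mmp2 read 12.88, 12.93 and 13.02 in static and 12.25, 12.28 and 12.91 in rotated samples, so rotated 3 overlapped the static range. Averaged over this list, the rotated samples stood at -0.24, -0.56 and -0.05 in replicate order. Static culture ran from -0.27 to 0.17, so rotated 2 alone lay outside the static range. With the replicate number as a block, the count of unadjusted p under 0.05 over all probe sets rose from 2228 to 3957. The 4 lists, with 10, 21, 15 and 12 genes tested, then held 3 higher and 11 lower genes in place of 2 and 8. Over all 12554 genes tested, 1033 were higher and 848 lower with the block, in place of 564 and 470. In the lists 0 genes passed adjustment.

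**Figure D5:**
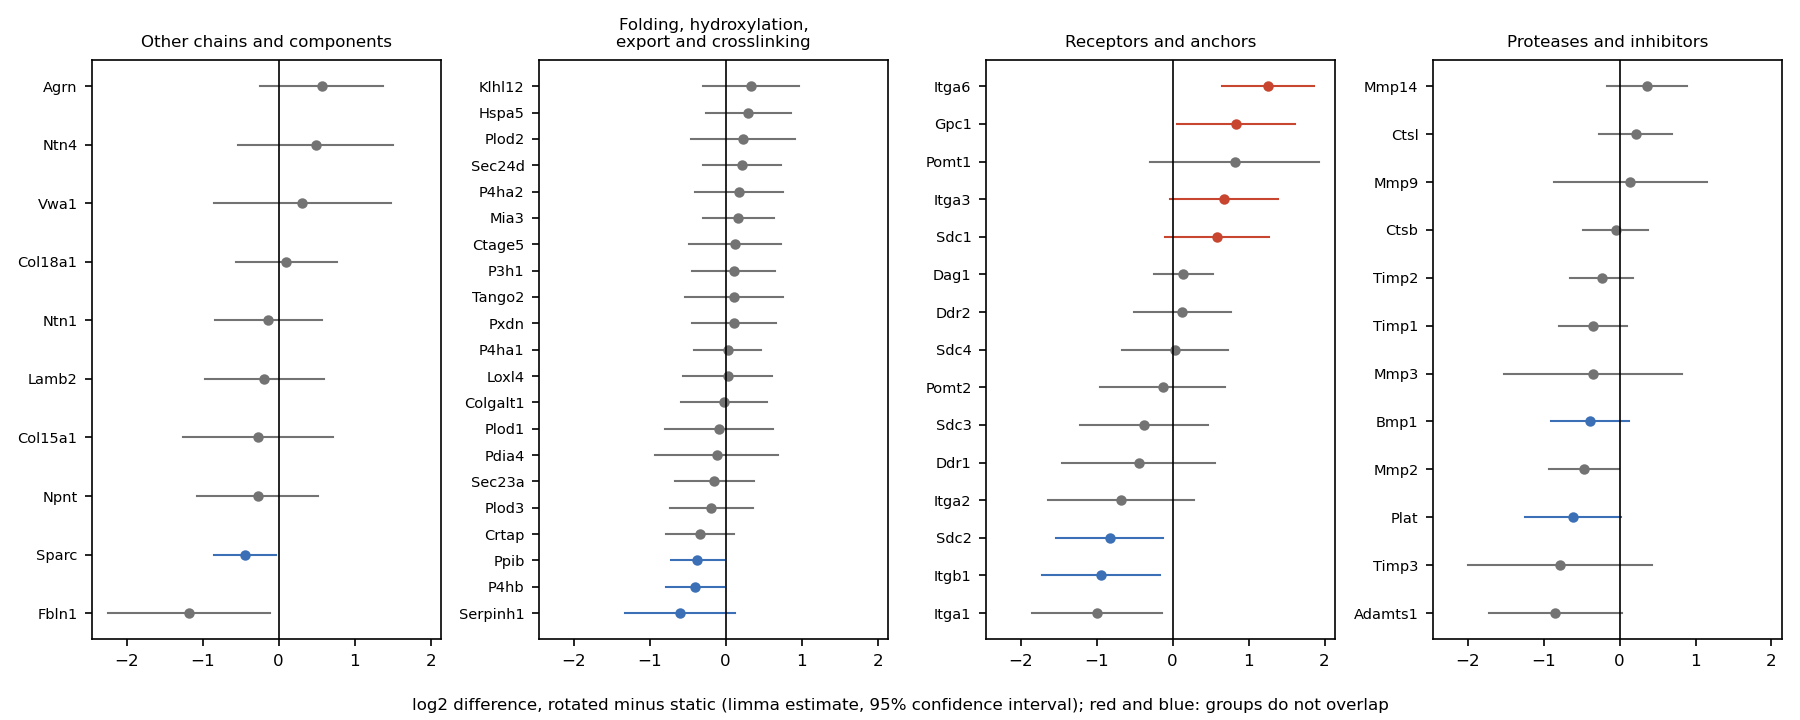
Log2 difference, rotated minus static (x axis), with the 95% confidence interval from limma for the tested genes of 4 lists: 10 other chains and components, 21 folding, export and crosslinking genes, 15 receptors and anchors, and 12 proteases and inhibitors. Red and blue mark genes whose rotated values all lie above or below the static values; Itga6 at 1.26 is the highest of the third panel.

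Transcripts with the pattern over the arrays most like that of Col4a1 were ranked by the root mean square difference of log2 values, each centred on its own mean over the 6 arrays, from Col4a1 1452035_at. The nearest genes of 27021 other probe sets were Banf2 (0.15), Ubn2 (0.16), the DNA repair gene Ercc1 (0.17), the selenophosphate synthetase gene Sephs2 (0.18) and the chloride transporter gene Clcn5 (0.19), none of them a basement membrane gene. Their rotated minus static differences ran from 1.24 to 1.46. The static mean of Banf2 (5.32) lay below the dim threshold, so its place depends on the offset. Among members, the second Col4a1 probe set stood at place 115 (0.36) and Col4a2 at place 198 (0.39). Lama5 1427010_s_at stood at place 8 (0.21), but its static mean lay below the dim threshold, so its place depends on the offset. Lamb1 1424114_s_at stood at place 2343 (0.58). Nid2 stood at place 26217 (1.44), among the least like Col4a1. The measure reflects the size of a difference as well as its direction, and all points share the same 6 arrays.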

How the data were processed

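The deposited table holds 1 linear intensity per probe set and array for 45101 probe sets on 6 arrays. The 2% trimmed mean is 500.0 on every array, so the authors had scaled the intensity values; the algorithm is not given in the sources used here, and detection calls were not used here. Array medians differed by 85.9% (tolerance 10%), so values were quantile normalised as log2(value + 16.6), with the 20th percentile as offset. The 64 controls and probe sets with a mean under the 40th percentile (5.96) were left out, leaving 27022. The platform's probe table gave 1 symbol to 34945 of 45037 probe sets, several to 932 and none to 9160, which are unnamed here; a probe set with several is not named. A two-sided limma model (version 3.58.1, R 4.3.3; eBayes with trend) was fitted to all tested probe sets, with Benjamini-Hochberg adjustment at 0.05, and tested on simulated data. A gene is represented by its brightest tested probe set. All member probe sets are named, and from each list genes with an unadjusted p under 0.05, up to 6. Agrn, Pxdn, Mia3 and Itga3 were added after their values were seen, as was the count of divergent gene pairs. These added genes were all higher in rotated samples in value. Genes of similar size in both directions were not added. Among them were Adamts1 (-0.84), Itga2 (-0.68), Plat (-0.61), Serpinh1 (-0.60), Pomt1 (0.82) and Sdc1 (0.59). The members, lists and alternatives were chosen with earlier results of these data known.

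Replicate numbers recur in both groups. Deviations from the group means correlated by 0.196, 0.313 and 0.334 for same-numbered samples and by -0.19 to -0.09 otherwise. Such deviations cancel within each group, so positive values for same-numbered samples force negative ones elsewhere on average. The negative values are thus no separate sign of pairing. The numbers were treated as pairing the samples in an alternative fit with a replicate block. Their meaning is not given in the labels. Promoter sequences and start sites come from RefSeq (GRCm38.p6), whose table held 7 of the 10 members. The number of arrays limits the precision.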

Additional observations from a re-analysis of the deposited data

How the results depend on the processing

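In limma 0 probe sets passed under the settings tried, except for 22 with array weights (1 a member, Col4a1) and 2 with the replicate block (no member). Counts at an unadjusted p under 0.05 over all probe sets were 2228 as reported, 1357 with median centring (which moved the median difference of all probe sets from 0.03 to 0.10), 5148 with array weights, 3957 with the replicate block and 702 after adjusting for the actin ratio, and 1091 to 3362 with 1 array left out, lowest without rotated 1 and highest without rotated 3. Member probe sets lower at an unadjusted p under 0.05 numbered 2 as reported, 3 with the replicate block, array weights or the stricter filter, and 1 with median centring, with no intensity trend, without static 1 and rotated 1 together, and with the actin covariate, and 1 to 3 with 1 array left out. Over the 4 lists, genes higher at that p numbered 2 as reported, 1 with the values as deposited and 1 to 3 with 1 array left out; genes lower at that p numbered 8 as reported, 1 with median centring or the actin covariate, 2 with no intensity trend, 4 without static 1 and rotated 1, 5 with no filter, 13 with array weights and 2 to 9 with 1 array left out. Col4a1 1452035_at passed with array weights (1.42, adjusted p 0.031).

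Signs turned in these cases. With the actin covariate, Col4a5 1425476_at was 0.076, Hspg2 1418670_s_at 0.28, Lama4 1424807_at 0.11 and the Lamc1 probe sets 0.25 and 0.37. With array weights, Nid1 1416808_at was 0.000725 and Lama4 1424807_at 0.0094. With median centring, Hspg2 1418669_at was 0.0081. Without static 1 and rotated 1, Nid1 1416808_at was 0.13 and Lamc1 1423885_at 0.17. With the mean over a gene's probe sets, Lama5 was 0.61 and Lamb1 -0.032. With 1 array left out, the range was -0.38 to 0.0037 for Col4a5 1425476_at, -0.43 to 0.066 for Nid1 1416808_at, -0.15 to 0.000197 for Hspg2 1418669_at, -0.37 to 0.13 for Lamc1 1423885_at and -0.89 to 0.32 for Lamc1 1423886_at. Actin covariate and array-weight fits change both estimate and spread; the cause was not tested. The replicate block changed no member's call after adjustment; it added Lama4 1424808_at to those lower at an unadjusted p under 0.05. Dim probe sets (both of Lama5, Lamc1 1423886_at) were not tested under the stricter filter.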
